A study of Mus musculus with 6 samples.

Results

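The mitochondrial respiratory chain passes electrons from NADH and succinate to oxygen and pumps protons across the inner mitochondrial membrane. Complex I (NADH dehydrogenase) and complex II (succinate dehydrogenase) feed electrons to coenzyme Q, complex III passes them to cytochrome c, and complex IV (cytochrome c oxidase) reduces oxygen. Most subunits are encoded in the nucleus and a few in the mitochondrial genome. In monocytes and macrophages the balance between respiration and glycolysis is known to differ between states of activation.

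The genes described here are the nuclear subunits of complexes I to IV that one rule on the gene symbol picks out: Nduf followed by a, b, c, s or v and a number, Sdha to Sdhd, any symbol starting with Uqcr, Cyc1, and any symbol starting with Cox and a digit from 4 to 8. The rule found 63 genes among the 22180 with a probe set of a single symbol. Of these, 60 lay above the array's 25th percentile on at least 3 arrays and were tested, among 18458 genes tested in all. All 60 were above that percentile on all 6 arrays. They comprise 31 complex I, 4 complex II, 8 complex III and 16 complex IV genes, plus Ndufa4l2, which belongs to no complex here. Ndufa4 was counted with complex IV, where its protein is now placed. The 3 genes not tested were Cox7b2, a testis form at 2.81 to 3.04 on the log2 scale, Cox8c, another testis form at 3.23 to 3.42, and the pseudogene Uqcrh-ps1 at 2.71 to 3.62. The 25th percentiles of the arrays lay at 3.46 to 3.61, and the dimmest genes that passed were Ndufs5 at 3.79 to 4.54, Cox8b at 3.88 to 4.06 and Ndufa4l2 at 3.82 to 4.42.

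The study sorted Ly6C-high inflammatory monocytes (CD11b+, CD11c-) from the spleens and from the tumors of mice that had received Th9 cells, a helper T cell subset, 10 days earlier. Total RNA of 3 spleen and 3 tumor samples was hybridised to Mouse Gene 2.0 ST arrays, 1 sample to an array. Both groups thus share the Th9 transfer, and neither an untreated group nor the tumor type or the mouse strain was given in the sources used here. The labels do not call the replicates separate mice, and the p-values reflect the scatter among these samples alone, part or all of which could be technical.

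The arrays numbered 3 stood apart. Over all tested genes the mean level was 6.05 to 6.07 on the arrays numbered 1 and 2 and 6.32 to 6.33 on those numbered 3, in spleen and tumor alike. Deviations from the group mean correlated at 0.36, 0.44 and 0.71 between spleen and tumor arrays of the same number, and at 0.46 and 0.35 between numbers 1 and 2 crosswise. Values from a fit blocked by replicate number are therefore given beside the results they change, and calls of members from the arrays numbered 1 and 2 alone are given as well. Of the genes that define the sort, Itgam (CD11b) was at 10.04 ± 0.15 in spleen and 9.19 ± 0.22 in tumor (SD, n = 3 each). Itgax, which encodes the CD11c that was sorted against, was at 11.16 ± 0.12 and 10.31 ± 0.17, so its transcript was well above the array's 25th percentile. The other genes of the sort, Ly6c2 and Ly6c1, were at 6.81 ± 0.58 and 3.65 ± 0.68 in spleen and at 8.29 ± 0.40 and 4.01 ± 0.40 in tumor. Itgam and Itgax were called lower in tumor (limma adjusted p = 0.015 and 0.00986), Ly6c2 was called higher (limma adjusted p = 0.0185), and Ly6c1 was not called. Summed intensities of marker lists did not overlap between the groups for platelets (605 to 831 in spleen, 261 to 286 in tumor), T cells (223 to 260 and 128 to 176), neutrophils (977 to 1020 and 754 to 814) and endothelium (178 to 230 and 429 to 634). In 3 of these lists a single gene was called: Ppbp of the 4 platelet genes (-2.0 ± 0.20), Cd3g of the 5 T cell genes (-1.36 ± 0.18) and Kdr of the 4 endothelial genes (2.88 ± 0.23). The other 3 endothelial genes, Pecam1, Tie1 and Cdh5, lay at -0.20 to -0.07, and no neutrophil gene was called. The summed monocyte list was at 14433 to 14980 in spleen and 15609 to 17229 in tumor, although 4 of its 6 genes had a difference below 0. Fcgr1 and Cd14 were called higher, Ccr2 and Csf1r were called lower, and Adgre1 and Lyz2 were not called. The part of other cells in the results was not tested.

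Respiratory chain transcripts were mostly a little lower in tumor than in spleen monocytes, and a single one passed the test. Ndufs8, a core subunit of complex I that carries iron-sulfur clusters on the way to coenzyme Q, was 1.79-fold lower in tumor. The difference was below 0 for 53 of the 60 genes (88.3%), against 58.6% of all genes tested, and its median was -0.23 on the log2 scale, a level 14.8% lower, against -0.05 over all genes. That median was -0.25 to -0.14 under the other scalings tried. The count below 0 was 52 under quantile normalization, 53 under median centring and 45 under cyclic loess, where 52.0% of all genes were below 0. In RNA from many cells, fewer cells with a transcript and less of it per cell cannot be told apart. By limma with Benjamini-Hochberg adjustment over all genes, 1 of 60 was called lower (1.67%), where the background was 4.85% of the genes tested (895 of 18458). No member was called higher, where the background was 5.73%, and none was higher at an unadjusted p below 0.05 either. At that unadjusted level 10 of 60 were lower. Among all 18458 genes tested, 2269 were lower and 1715 higher at the same level. In this fit the share of members called was thus no larger than that of genes in general. Under 3 alternatives the members' share called lower was above that of all genes: 25% against 17.3% in the blocked fit, 13.3% against 10.4% under quantile normalization and 51.7% against 22.9% with array weights.

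The tumor arrays lay wholly below the spleen arrays for 17 of 60 members (28.3%), where 15.5% of all genes did so. None lay wholly above, against 9.81% of all genes. At each of the 3 replicate numbers the tumor array was below its spleen partner for 39 members (65.0%; 33.0% of all genes) and above it for 2 (3.33%; 20.0% of all genes), Ndufs4 and Sdhc. In the fit blocked by replicate number, 15 members were called lower and none higher, and the background rose as well, to 17.3% lower and 11.7% higher (29.0% in either direction). Those 15 were Ndufs8, Ndufs7, Ndufa6, Ndufv3, Ndufa2, Ndufb11, Ndufb9 and Ndufb3 of complex I, Uqcrb and Uqcrc1 of complex III, and Cox4i1, Cox6a1, Cox7a2l, Cox7b and Cox8a of complex IV. From the arrays numbered 1 and 2 alone, Ndufs8, Ndufa6 and Uqcrb were called lower (5.0%; background 8.39% lower and 7.51% higher).

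The mean over the 60 tested members was 7.90, 7.93 and 8.04 on spleen arrays 1 to 3 and 7.67, 7.77 and 7.79 on tumor arrays 1 to 3. Every tumor mean was therefore below every spleen mean, while the means over all genes were nearly equal within each number. Complexes I, III and IV followed that order. Complex I averaged 7.80, 7.84 and 7.96 in spleen and 7.59, 7.66 and 7.70 in tumor. Complex III averaged 8.22, 8.26 and 8.34 against 7.99, 8.12 and 8.11, and complex IV 7.93, 7.95 and 7.96 against 7.63, 7.78 and 7.71. In complex II the groups overlapped, with 8.86, 8.94 and 9.25 in spleen and 8.78, 8.84 and 9.09 in tumor. These averages are descriptions of the chosen genes and carry no test.

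**Figure D1:**
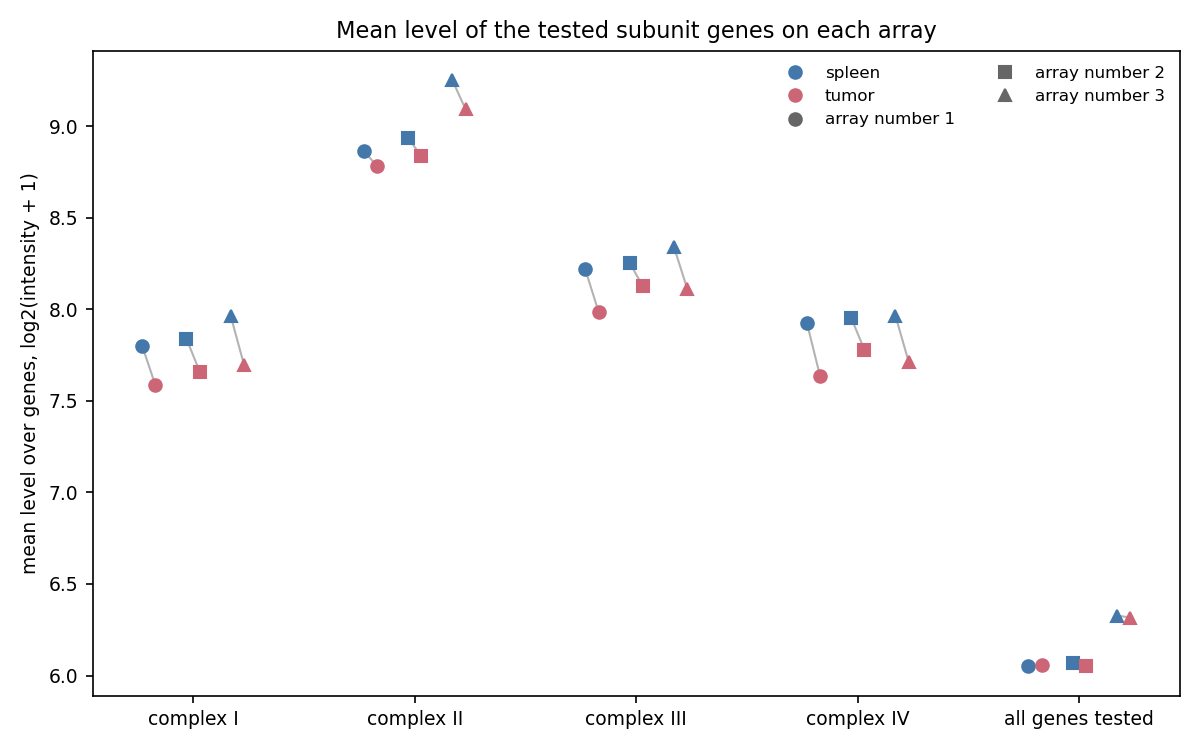
Mean log2(intensity + 1) on each array over the tested genes of each complex and over all genes tested, with spleen (blue) and tumor (red) arrays of one number joined by a line. In complex I the 3 tumor means, 7.59 to 7.70, lie below the 3 spleen means, 7.80 to 7.96, while over all genes the joined points nearly coincide.

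**Figure D2:**
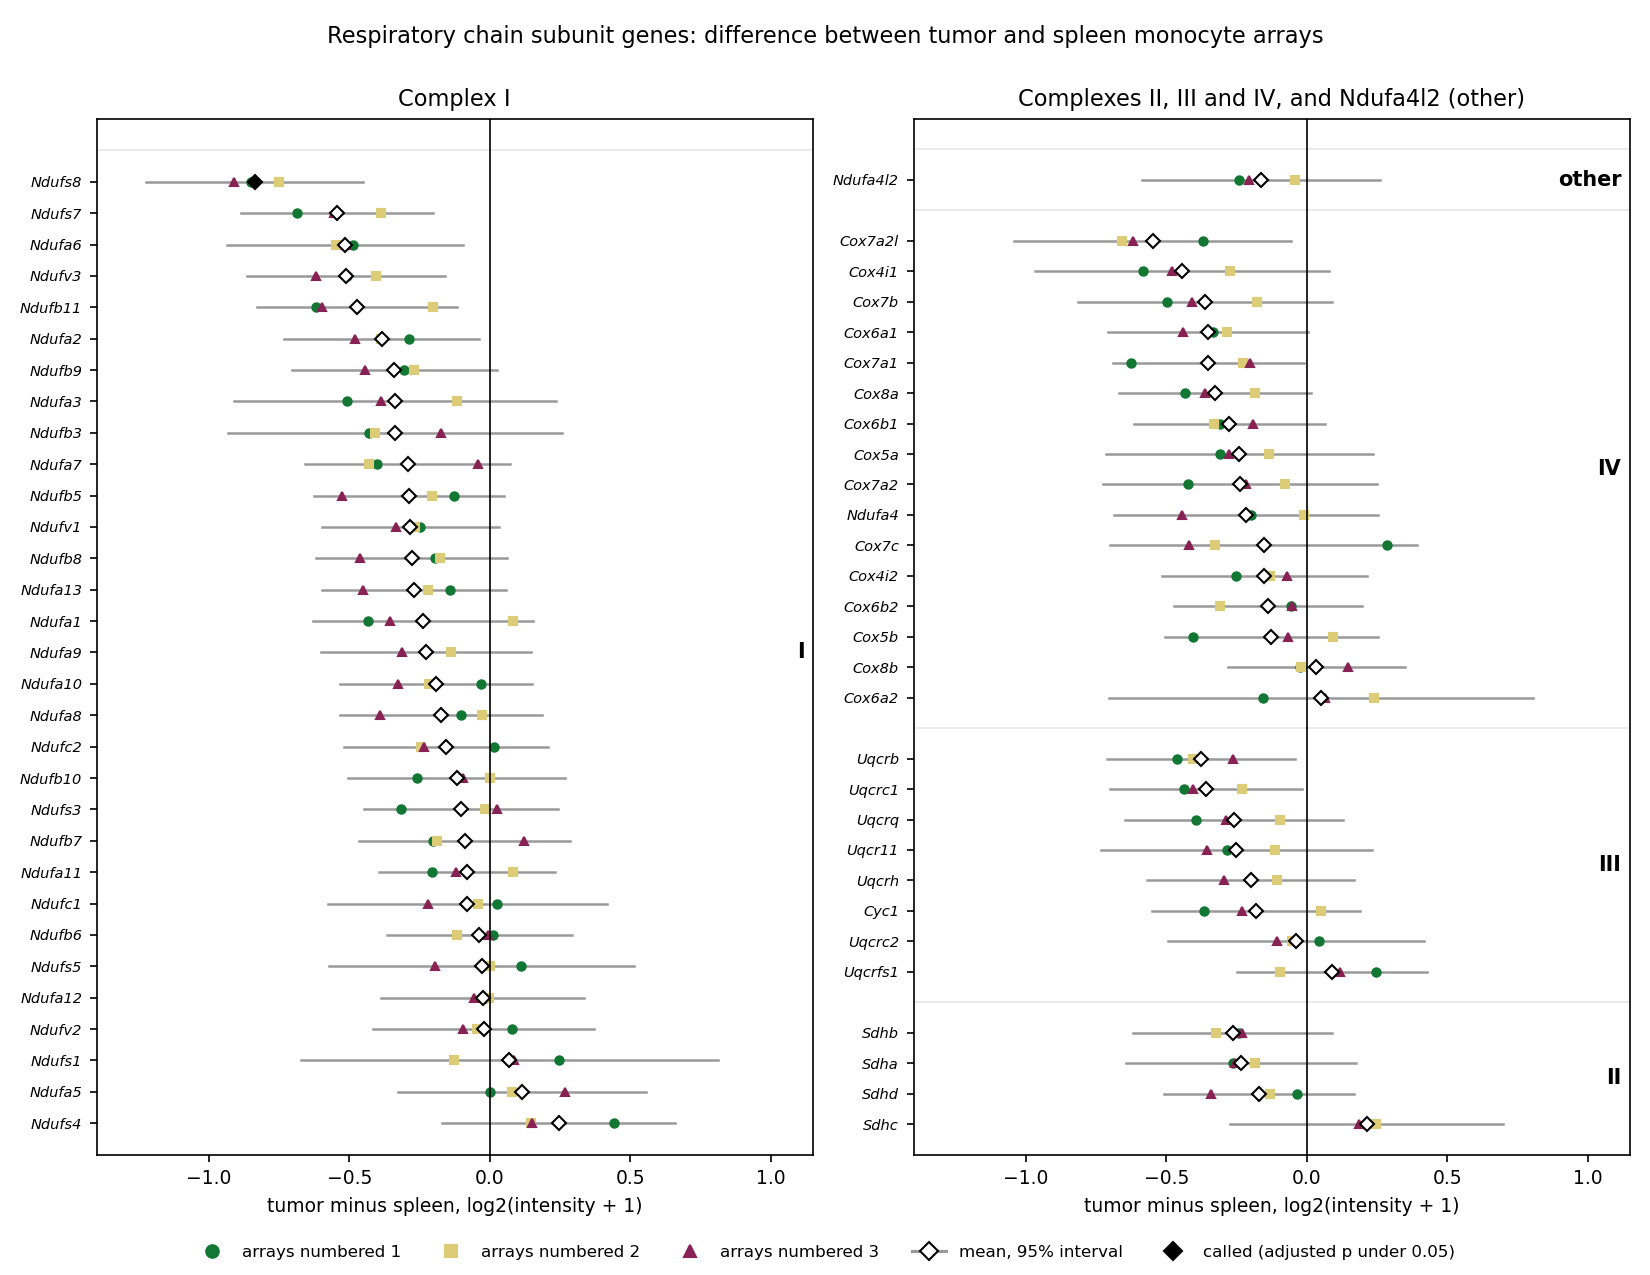
Tumor minus spleen on the log2(intensity + 1) scale for each tested member, grouped by complex, with the mean and its 95% interval (diamond and line) and the difference at each replicate number (coloured symbols). Most points lie to the left of 0, and Ndufs8 at -0.84 is the one called.

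Promoters of respiratory chain genes are known for sites of the nuclear respiratory factor NRF1, of ETS-family factors, of YY1 and of SP1. RefSeq windows from 250 bases before to 50 bases after the start (GRCm38.p6) were at hand for 49 of the 63 members, 51 windows in all, and for 32851 windows genome-wide. On either strand, the NRF1 motif was in 19.6% of member windows and 4.60% of all windows. CCGGAAG (ETS) was in 21.6% and 8.86%, AAGATGGCG (YY1) in 7.84% and 1.40%, and GGGCGG (SP1) in 43.1% and 35.7%. TGACGTCA (the cyclic AMP response element) was in 5.88% and 1.79%, TCAAGGTCA (ERR) in 1.96% and 0.423%, and the interferon-stimulated response element in 3.92% and 3.44%. These shares describe letters, not bound sites. The 250 bases before the start are shown for the one member called, Ndufs8 (chr19:3912775-3913024, minus strand). Cox6a1 (chr5:115348959-115349208, minus strand) is shown for its mixture of motifs, and Sdha (chr13:74350241-74350490, minus strand) for its 3 NRF1 matches. Cycs (chr6:50566570-50566819, minus strand), no member, is shown because it moved the other way, as given with the carriers. Capitals mark motif matches.
Ndufs8: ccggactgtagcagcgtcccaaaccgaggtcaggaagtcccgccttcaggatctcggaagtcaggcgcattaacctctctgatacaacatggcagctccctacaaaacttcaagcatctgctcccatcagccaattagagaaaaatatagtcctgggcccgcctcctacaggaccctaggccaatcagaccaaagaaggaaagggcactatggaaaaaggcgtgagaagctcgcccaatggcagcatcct
Cox6a1: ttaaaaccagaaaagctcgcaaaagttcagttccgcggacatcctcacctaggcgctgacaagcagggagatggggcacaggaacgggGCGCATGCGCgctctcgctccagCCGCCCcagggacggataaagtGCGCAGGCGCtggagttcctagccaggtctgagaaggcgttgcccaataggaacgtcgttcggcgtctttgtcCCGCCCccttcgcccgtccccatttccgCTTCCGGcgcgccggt
Sdha: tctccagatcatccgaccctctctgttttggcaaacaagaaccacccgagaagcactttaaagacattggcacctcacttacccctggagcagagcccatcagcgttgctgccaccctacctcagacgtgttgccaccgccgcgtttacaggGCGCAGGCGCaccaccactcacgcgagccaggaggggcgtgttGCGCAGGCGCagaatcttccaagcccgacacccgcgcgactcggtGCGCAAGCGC
Cycs: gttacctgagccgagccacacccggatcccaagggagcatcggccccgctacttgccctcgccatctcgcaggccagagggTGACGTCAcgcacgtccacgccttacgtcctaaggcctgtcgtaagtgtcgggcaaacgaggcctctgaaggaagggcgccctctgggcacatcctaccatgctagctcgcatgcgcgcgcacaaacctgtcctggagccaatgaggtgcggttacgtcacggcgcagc
Cox6a1 held NRF1 letters starting 162 and 117 bases before the start, SP1 letters at 139 and 44 and ETS letters at 16. Sdha held NRF1 letters at 98, 55 and 10, and Cycs the cyclic AMP response element at 169. The Ndufs8 window held ETS letters only past the start, beyond the stretch shown.

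Complex I oxidises NADH through its N module, passes electrons to coenzyme Q through its Q module, and pumps protons through its membrane arm. In the Q module, Ndufs8 (probe set 17361032) read 8.59, 8.68 and 8.99 on spleen arrays 1 to 3 and 7.74, 7.93 and 8.08 on the tumor arrays, as log2(intensity + 1). The highest tumor array was below the lowest spleen array. Its means were 8.75 ± 0.21 and 7.92 ± 0.17 (SD, n = 3 each), a difference of -0.84 ± 0.17 (SE; 95% interval -1.22 to -0.45; limma adjusted p = 0.0158), lower at 3 of 3 numbers. The adjusted p was 0.000511 with the replicate block. It rose to 0.0585 without spleen replicate 2, 0.0853 without tumor replicate 1 and 0.0522 without tumor replicate 2, where the call was lost, and ranged from 2.09e-05 to 0.0853 over the alternatives tried.

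Ndufs7, the core subunit that carries the last iron-sulfur cluster before coenzyme Q, read 9.69, 9.73 and 9.65 in spleen and 9.0, 9.35 and 9.10 in tumor. The groups did not overlap, and the difference of -0.54 ± 0.15 missed the threshold (limma adjusted p = 0.0557; 0.00553 with the replicate block). Ndufs3, a core subunit of the same module, read 6.38, 6.17 and 6.34 in spleen and 6.07, 6.15 and 6.36 in tumor. Its groups overlapped, with a difference of -0.10 ± 0.15 (95% interval -0.45 to 0.24). Ndufa5, an accessory subunit there, differed by 0.12 ± 0.19. The 4 Q module genes thus ranged from Ndufs8 at -0.84 to Ndufa5 above 0, with a median of -0.32.

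Among the 9 N module genes the median difference was -0.28 and 7 were below 0. Ndufv1, the core subunit that binds NADH and flavin, read 8.12, 8.26 and 8.29 in spleen and 7.87, 8.0 and 7.96 in tumor. Its groups did not overlap, and its difference of -0.28 ± 0.14 (95% interval -0.60 to 0.03) was not called (limma adjusted p = 0.296). The other core subunits of the module, the iron-sulfur proteins Ndufv2 and Ndufs1, did not part the groups. Ndufv2 read 8.89, 8.81 and 9.22 against 8.96, 8.76 and 9.12, a difference of -0.02 ± 0.17 (95% interval -0.42 to 0.37). Ndufs1 read 7.38, 7.44 and 8.28 against 7.62, 7.31 and 8.37, a difference of 0.07 ± 0.32, with both arrays numbered 3 higher than the rest. The accessory subunits Ndufa6, Ndufv3 and Ndufa2 had the lowest values of the module relative to spleen. Ndufa6 read 8.29, 8.20 and 8.63 in spleen and 7.80, 7.65 and 8.12 in tumor (difference -0.52 ± 0.18, limma adjusted p = 0.134, 0.00425 with the replicate block). Ndufv3 read 7.42, 7.58 and 7.73 against 6.91, 7.17 and 7.11 (-0.51 ± 0.15, limma adjusted p = 0.0782, 0.00572 with the block). In both genes all tumor arrays were below all spleen arrays, as they were for Ndufa2 at -0.39 ± 0.15. Ndufs4, an accessory subunit next to the iron-sulfur path, was the member highest in tumor relative to spleen. It read 7.41, 7.72 and 7.97 against 7.85, 7.86 and 8.12, and its difference of 0.25 ± 0.18 (95% interval -0.17 to 0.66) was not called.

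The complex I genes outside the N and Q module lists were counted as membrane arm. All 18 had a difference below 0, with a median of -0.21 and none called. They are accessory subunits, since the core proton pumps are encoded in mitochondrial DNA. Under cyclic loess Ndufb6, Ndufb7, Ndufc1 and Ndufa11 were above 0, at 0.005 to 0.061. Ndufb11 had the largest difference, reading 5.20, 4.95 and 5.32 in spleen and 4.58, 4.74 and 4.72 in tumor (-0.47 ± 0.16, limma adjusted p = 0.104, 0.0179 with the replicate block). Ndufb9 read 10.30, 10.35 and 10.67 against 10.0, 10.07 and 10.22 (-0.34 ± 0.16; adjusted p by limma with the block 0.0299). The groups did not overlap for either, nor for Ndufb5, Ndufb8 and Ndufa13. The arm ended at Ndufs5 and Ndufb6, at -0.03 and -0.04. Over all of complex I, 28 of 31 genes were below 0 and 11 did not overlap, with 1 called and 8 called under the block. Over all genes tested the shares were 58.6% below 0, 15.5% wholly below, 4.85% called lower and 17.3% called lower under the block.

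**Figure D3:**
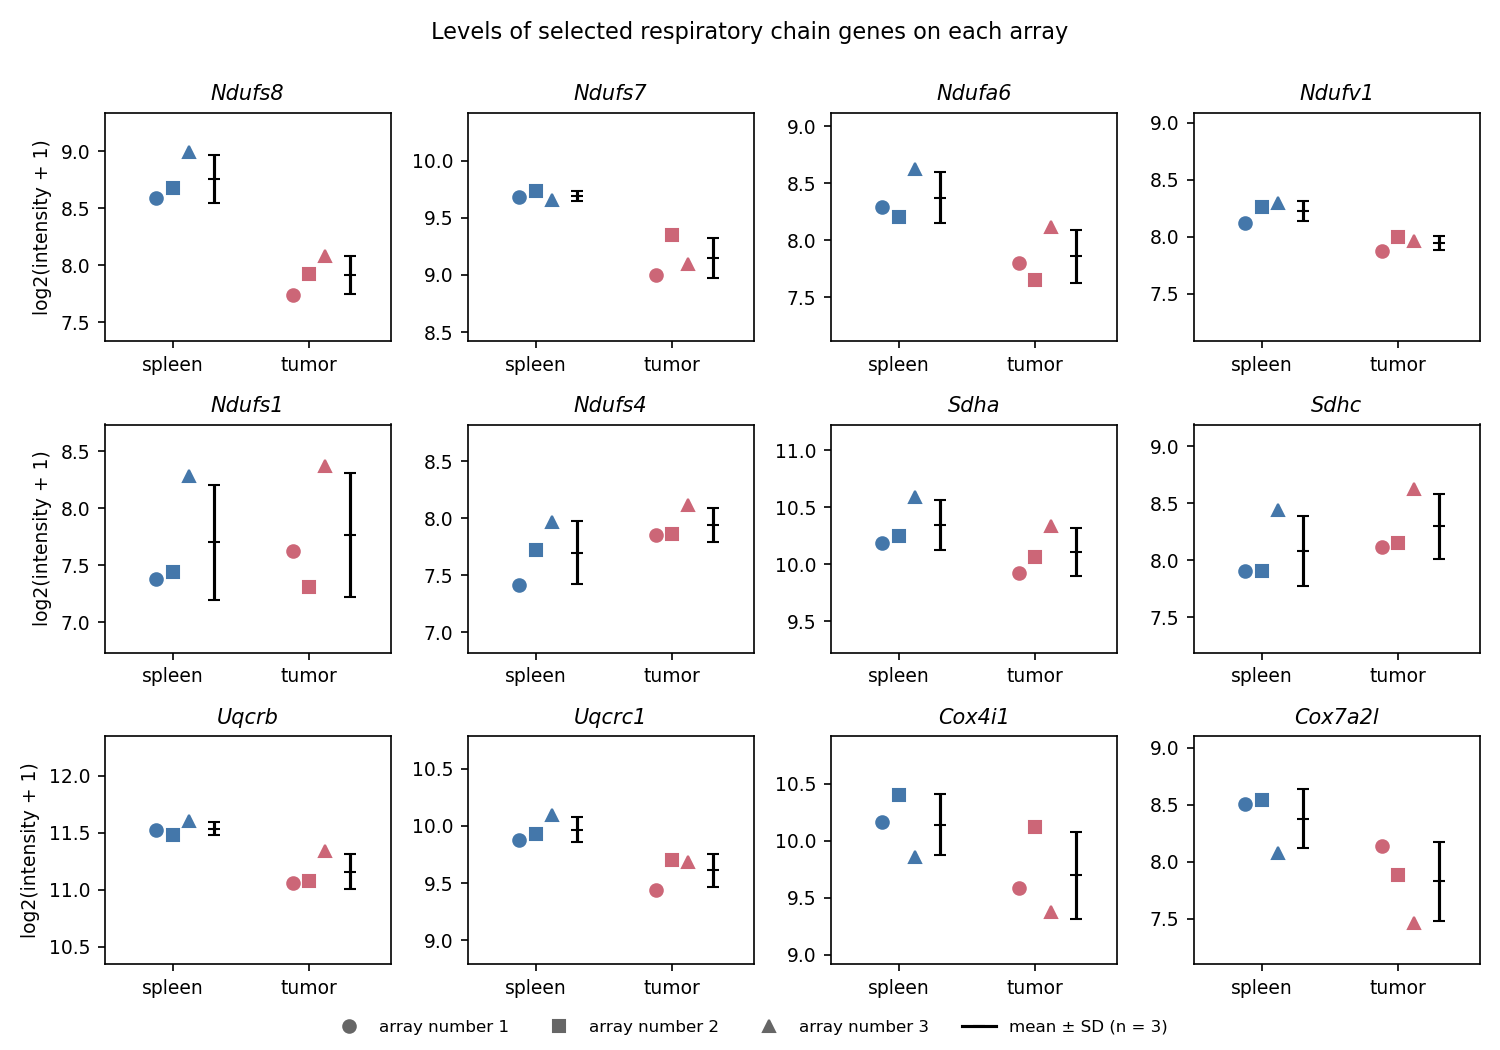
log2(intensity + 1) on each of the 6 arrays for 12 of the members described, with the mean and SD of each group (n = 3) and symbols for the array number. For Ndufs8 the tumor points, 7.74 to 8.08, lie below the spleen points, 8.59 to 8.99.

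Complex II links the tricarboxylic acid cycle to the chain and has no mitochondrially encoded subunit. None of its 4 genes was called, with or without the block, and the median difference was -0.20. Sdha, the flavoprotein that oxidises succinate, read 10.18, 10.25 and 10.59 in spleen and 9.92, 10.06 and 10.34 in tumor. Sdhb, the iron-sulfur subunit, read 8.08, 8.17 and 8.34 against 7.83, 7.85 and 8.11. Both overlapped between groups yet were lower at every number, by -0.23 ± 0.18 (95% interval -0.64 to 0.17) and -0.26 ± 0.15 (95% interval -0.62 to 0.09). The membrane anchors went in opposite directions without passing the test. Sdhd differed by -0.17 ± 0.15, whereas Sdhc read 7.90, 7.90 and 8.44 against 8.11, 8.15 and 8.62, a difference of 0.21 ± 0.21 (95% interval -0.27 to 0.70).

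In complex III, 7 of 8 genes had a difference below 0 (58.6% of all genes) and the median was -0.22. None was called, and 2 were called lower under the block (17.3% of all genes). Uqcrb, which lies near a site where coenzyme Q is bound, read 11.52, 11.48 and 11.60 in spleen and 11.06, 11.08 and 11.34 in tumor. Its groups did not overlap (-0.38 ± 0.15, limma adjusted p = 0.172, 0.0211 with the replicate block and 0.0267 from the arrays numbered 1 and 2). Uqcrc1, a core scaffold subunit, read 9.88, 9.93 and 10.09 against 9.44, 9.70 and 9.69, again with no overlap (-0.36 ± 0.15, limma adjusted p = 0.208, 0.0269 with the block). The nuclear subunits that carry electrons overlapped between groups. Cyc1, cytochrome c1, read 7.50, 7.55 and 7.55 against 7.13, 7.60 and 7.32 (-0.18 ± 0.16). Uqcrfs1, the Rieske iron-sulfur protein, read 7.06, 7.19 and 6.96 against 7.31, 7.09 and 7.08 (0.09 ± 0.15, 95% interval -0.25 to 0.43) and was the one complex III gene above 0. Uqcrq, Uqcr11, Uqcrh and Uqcrc2 lay between -0.26 and -0.04.

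Complex IV holds several pairs of isoforms, of which one is usually broad and another restricted to muscle, lung or testis. Of its 16 tested genes 14 had a difference below 0 (58.6% of all genes), the median was -0.24, none was called, and 5 were called lower under the block (17.3% of all genes). All 5 are broadly used forms or related to them. Cox4i1, the common form of subunit IV, read 10.17, 10.40 and 9.86 in spleen and 9.58, 10.12 and 9.38 in tumor. The groups overlapped, with a lower tumor array at each number (-0.45 ± 0.23, limma adjusted p = 0.329, 0.0141 with the block). Its lung counterpart Cox4i2 read 5.08, 4.89 and 5.17 against 4.83, 4.76 and 5.10 (-0.15 ± 0.16). Cox6a1 read 11.78, 11.81 and 12.11 against 11.44, 11.53 and 11.66, with no overlap (-0.35 ± 0.16, limma adjusted p = 0.236, 0.0251 with the block). Its muscle counterpart Cox6a2 read 4.35, 4.11 and 5.12 against 4.19, 4.35 and 5.19 (0.05 ± 0.33), with both arrays numbered 3 higher than the rest. Cox6b1 read 8.97, 9.19 and 9.11 against 8.66, 8.86 and 8.92, with no overlap (-0.28 ± 0.15), and the testis form Cox6b2 read 5.73, 6.04 and 5.80 against 5.68, 5.73 and 5.74 (-0.14 ± 0.15).

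Cox7a2l, which encodes a factor that joins complexes III and IV into supercomplexes, had the largest difference of the complex IV genes. It read 8.51, 8.54 and 8.08 in spleen and 8.14, 7.88 and 7.46 in tumor. The groups overlapped through spleen array 3, and the difference was -0.55 ± 0.22 (95% interval -1.04 to -0.06, limma adjusted p = 0.175, 0.00553 with the block). Cox7a1, the muscle form, read 6.11, 5.83 and 5.89 against 5.49, 5.61 and 5.69 with no overlap (-0.35 ± 0.15), and Cox7a2 read 9.12, 9.12 and 8.63 against 8.69, 9.04 and 8.41 with overlap (-0.24 ± 0.21). Cox8a read 10.44, 10.49 and 10.37 against 10.01, 10.31 and 10.01, with no overlap (-0.33 ± 0.15, limma adjusted p = 0.259, 0.0411 with the block). Its muscle counterpart Cox8b stayed near the filter, at 3.90, 3.90 and 3.91 against 3.88, 3.88 and 4.06. Among the genes without a tested counterpart, Cox5a read 10.06, 10.12 and 9.64 against 9.76, 9.98 and 9.37 (-0.24 ± 0.21). Cox5b read 9.35, 9.32 and 9.40 against 8.95, 9.42 and 9.34 (-0.13 ± 0.17). Cox7b differed by -0.36 ± 0.20 and Cox7c by -0.15 ± 0.24. Ndufa4 read 9.16, 9.16 and 9.77 against 8.96, 9.15 and 9.33 (-0.22 ± 0.21), and its paralog Ndufa4l2, known as a target of hypoxia-inducible factor, read 4.06, 3.94 and 4.42 against 3.82, 3.90 and 4.22 (-0.16 ± 0.18). No isoform pair showed the restricted form called higher while the common form was lower.

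The 59 members that were not called had differences from -0.55 to 0.25, adjusted p-values by limma from 0.0557 to 0.983, and standard errors from 0.14 to 0.33. Among all 60, the 95% intervals of 2 genes, Ndufs8 and Cox7a2l, reach beyond a 2-fold fall, and none reaches a 2-fold rise. For 5 members a further probe set of the same symbol exists, and in each the groups overlapped on it. The other set of Cox7b read 3.77, 3.48 and 3.69 in spleen, about at the arrays' 25th percentiles, and 3.54, 4.14 and 4.46 in tumor. A further 10 probe sets name a member-type gene together with another symbol and were left out. On 4 of them the tumor arrays lay wholly below the spleen arrays, those of Uqcr10 with Gm6293 (-0.34), Cox6c with Gm6265 (-0.26), Ndufs6 with Ndufs6b (-0.21) and Uqcrb with Gm10767 (-0.13). On the other 6, which include a further set each for Cox6c and Ndufs6, the groups overlapped. Near copies could share the signal of any of these sets.

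In the other mitochondrial lists genes were called in both directions, among them cytochrome c and assembly factors of each complex. Over all genes tested, 5.73% were called higher and 4.85% lower, and under the block 11.7% and 17.3%, shares against which each list's counts stand. The lists of other mitochondrial genes were drawn up from general knowledge with earlier results of these data known. Among 13 carrier and coenzyme Q genes, Cycs, the cytochrome c that shuttles electrons from complex III to IV, rose and Coq9, needed for coenzyme Q synthesis, fell. Cycs read 9.17, 9.25 and 9.39 in spleen and 10.27, 10.15 and 10.56 in tumor, above spleen on all arrays (1.06 ± 0.16, 2.08-fold, limma adjusted p = 0.00412). Coq9 fell by 0.62 ± 0.15 (limma adjusted p = 0.0376), and that call was lost when any one array was left out. Under the block 2 of the 13 were called higher and 4 lower.

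Of 22 complex IV assembly factors, 3 rose, none fell, and the list's median was -0.16. Cox18, which inserts a mitochondrially made subunit into the membrane, read 6.59, 6.74 and 7.44 in spleen and 8.43, 8.07 and 8.86 in tumor (1.53 ± 0.27, limma adjusted p = 0.00897). Sco1, a copper chaperone, read 5.91, 6.23 and 6.60 against 7.58, 7.24 and 8.13 (1.40 ± 0.26, limma adjusted p = 0.0109). Cmc2, a small protein of the intermembrane space, read 8.16, 8.14 and 8.54 against 9.08, 9.30 and 9.48 (1.0 ± 0.18, limma adjusted p = 0.00854). The groups did not overlap for these 3, and each kept its call without any one array. Under the block, 5 of the 22 were called higher and 9 lower. Of 10 complex II and III factors, 3 fell and none rose. Sdhaf1, which helps Sdhb receive its iron-sulfur clusters, read 7.10, 7.10 and 7.41 in spleen and 5.92, 6.05 and 6.10 in tumor (-1.18 ± 0.15, 2.27-fold, limma adjusted p = 0.00184), while Sdhb itself was not called. Uqcc3 and Bcs1l, which act in complex III assembly, each fell by 0.74 on the log2 scale (SE 0.15 and 0.16, limma adjusted p = 0.0175 and 0.0194), calls that were lost without spleen replicate 2 or tumor replicate 2, and for Uqcc3 also without tumor replicate 1 and for Bcs1l without spleen replicate 1. Bcs1l missed the threshold under quantile normalization and loess as well. Of 17 complex I factors 1 fell, Ecsit (-0.73 ± 0.15, limma adjusted p = 0.0163), and its call was lost without any one of the arrays numbered 1 and 2. Under the block 7 of the 17 were called lower and 1 higher.

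None of 10 mitochondrially encoded subunits of complexes I, III and IV was called, with differences from -0.26 (ND3) to -0.03 (ND6) and ND4L at -0.22. The tumor array was lower for 10 of the 10 at number 1, but for 5 at number 2 and 5 at number 3. None of 18 ATP synthase genes was called, with a median of -0.13, and 3 were called lower under the block. The smallest p-values there were those of Atp5g2, a subunit of the membrane ring (-0.53 ± 0.16, limma adjusted p = 0.0792, 0.00444 with the block), and Atpif1, an inhibitor of the enzyme (-0.33 ± 0.13, 0.0346 with the block). Of 16 tricarboxylic acid cycle genes 2 fell, the isocitrate dehydrogenases Idh3g (-0.65 ± 0.16, limma adjusted p = 0.0409) and Idh2 (-0.61 ± 0.16, limma adjusted p = 0.0466). Both calls were lost without any one of the arrays, except that Idh3g kept its call without tumor replicate 3. Under the block 6 of the 16 were called lower. Of 16 tested biogenesis genes 2 fell. Twnk, the helicase that unwinds mitochondrial DNA, read 5.60, 5.52 and 5.68 in spleen and 4.82, 4.76 and 4.76 in tumor (-0.82 ± 0.14, limma adjusted p = 0.00611). Pprc1, a coactivator, fell by 0.76 ± 0.17 (limma adjusted p = 0.0229), a call kept only without spleen replicate 3. Under the block 5 of the 16 were called lower and 3 higher. Of 71 mitochondrial ribosome genes 1 rose, Mrpl39 (1.16 ± 0.20), and 3 fell, Mrps18b (-0.91 ± 0.16), Mrpl42 (-0.78 ± 0.17) and Mrps2 (-0.67 ± 0.14), and under the block 3 were called higher (11.7% of all genes) and 23 lower (17.3% of all genes). Mrpl39 kept its call without any one array, and the 3 that fell each lost theirs without at least 2 single arrays. Of 8 genes for uncoupling and other electron entry, Gpd2, which feeds glycerol phosphate electrons to coenzyme Q, rose (0.88 ± 0.15, limma adjusted p = 0.00722), and Etfb, which passes electrons from fatty acid oxidation, fell (-0.75 ± 0.19, limma adjusted p = 0.0413), a call kept only without tumor replicate 3. Ndufab1, a complex I subunit outside the symbol rule, differed by 0.03 ± 0.16.

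**Figure D4:**
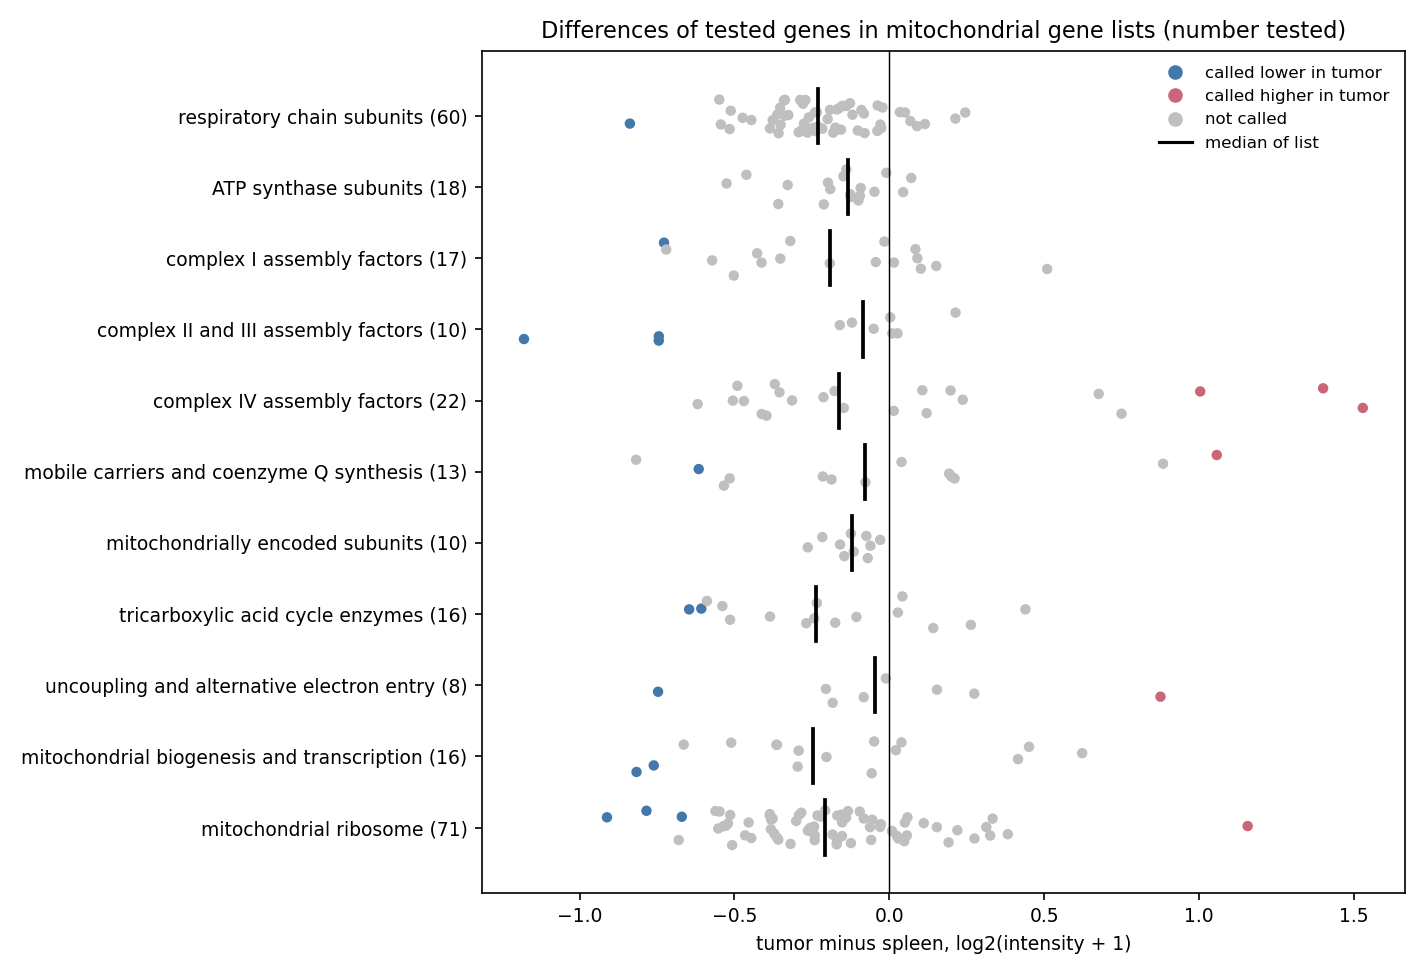
Tumor minus spleen on the log2(intensity + 1) scale for every tested gene of each list (dots), with the list's median (bar) and called genes in blue (lower) or red (higher). The respiratory chain members stay between -0.84 and 0.25, while Cycs at 1.06 and Cox18 at 1.53 lie outside that range.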

How the data were processed

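Gene expression was measured in 6 samples, 3 of spleen and 3 of tumor monocytes. The authors deposited linear intensity values for 41345 probe sets, made with RMA per the submitters' processing notes. No source used here says whether all arrays were normalized together. Of the probe sets, 23521 have 1 gene symbol, 1814 have several and 16010 are unlisted. For each of 22180 genes the probe set with the highest mean over the 6 arrays was kept. Genes above the array's 25th percentile on at least 3 arrays (18458) were tested as log2(intensity + 1) in a moderated linear model whose single term was the group (limma 3.58.1, R 4.3.3). Tests were two-sided. Benjamini-Hochberg adjustment ran over all genes tested, and calls are at an adjusted p below 0.05. Fold changes are on the log2(intensity + 1) scale. With 3 arrays against 3, an exact permutation test cannot go below 0.1, so none was used. Same-numbered arrays deviated together (correlations 0.36, 0.44 and 0.71), so the replicate block is given where it changes a call. Numbers 1 and 2 did so crosswise as well (0.46 and 0.35), so these values do not tell number 1 from number 2. The pairing comes from the replicate numbers in the sample titles, whose meaning no label explains. The script was tested on simulated data. Members and lists were chosen with earlier results of these data known. All 63 members matched RefSeq by Entrez ID under the same symbol.

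Values on every array are given for called members, for catalytic or core subunits and for isoform pairs. From the pathway lists, up to 3 called genes per direction are named, or the 2 with the lowest p in lists without a call. Other genes with values, such as Ndufa6 or Ndufb11, were named after their values were seen. Marker lists whose sums overlapped between groups were B cell (64.4 to 135 in spleen, 58.3 to 102 in tumor), NK cell (67.9 to 82.0 and 61.6 to 90.8), dendritic (837 to 982 and 801 to 879), fibroblast (442 to 529 and 417 to 469), melanocyte (275 to 377 and 293 to 418) and epithelial (221 to 304 and 196 to 287). The 4 genes of the sort summed to 3226 to 3897 and 1951 to 2577. No erythroid marker had a probe set of a single symbol. The alternatives were another scaling, pseudocount, filter, probe set rule, prior, array weights, threshold, the replicate block, the arrays numbered 1 and 2 alone, and each array left out.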

Additional observations from a re-analysis of the deposited data

How the results depend on the processing

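No member was called higher under any alternative tried, and Ndufs8, called by the main setting, kept its sign under all of them. The sign turned under at least 1 alternative for 16 members that the main setting did not call. The largest of them was Cox7b at -0.36, which was called lower with the replicate block and with array weights. The count of members called lower, 1 by the main setting, was 8 under quantile normalization, 5 under median centring, 3 under cyclic loess, 3 with a pseudocount of 16, 2 with a 50th percentile filter, 31 with array weights, 15 with the replicate block, 3 from the arrays numbered 1 and 2, 0 at an adjusted p below 0.01 (limma; 10 at an unadjusted p below 0.05) and 0 to 1 when single arrays were left out. In complex I the counts were, in that order, 5, 4, 3, 3, 2, 14, 8, 2, 0 and 0 to 1. Complex II had 2 with array weights. Complex III had 2 under quantile normalization, 1 under median centring, 5 with array weights, 2 with the replicate block and 1 from the arrays numbered 1 and 2. Complex IV had 1 under quantile normalization, 10 with array weights and 5 with the replicate block. Of all genes tested, 4.85% were called lower by the main setting, 10.4% under quantile normalization, 9.78% under median centring and 7.21% under loess. This share was 5.71% with a pseudocount of 16, 7.65% with the 50th percentile filter, 22.9% with array weights and 17.3% with the replicate block. From the arrays numbered 1 and 2 it was 8.39%, at the stricter threshold 1.68%, and with single arrays left out 1.59% to 5.61%. Genes called in all, 1952 by the main setting, numbered 3507 under quantile normalization, 3289 under median centring, 3184 under loess, 7102 with array weights, 5346 with the replicate block, 2936 from the arrays numbered 1 and 2, 961 at the stricter threshold and 1011 to 1924 with single arrays left out. At an unadjusted limma p below 0.05, 2269 of the 18458 genes tested were lower. Median differences moved to -0.14 (complex I), -0.12 (II), -0.12 (III) and -0.16 (IV) under loess. They moved to -0.27 (II) and -0.32 (IV) under quantile normalization and to -0.33 (IV) with array weights. With single arrays left out they ranged from -0.25 to -0.15 (I), -0.28 to -0.092 (II), -0.31 to -0.16 (III) and -0.32 to -0.21 (IV). The cause of these shifts was not tested, except that a stricter threshold calls fewer genes by construction. Ndufs8 kept its call with the 50th percentile filter and with averaged probe sets. It has 1 probe set and passed that filter, so neither setting could change its values, and the kept call adds little.

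There were only 3 arrays a group, and the standard errors of members were 0.14 to 0.33 on the log2 scale in the main fit. The largest, 0.33 for Cox6a2, was 0.11 with the replicate block.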

Other observations

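Exactly equal deposited values linked some arrays and not others. Any pair of the 4 arrays numbered 1 and 2 shared the same value at 2449 to 3534 probe sets (5.92% to 8.55% of 41345), across spleen and tumor. None of those arrays shared a value with an array numbered 3 at the same probe set, and the spleen and tumor arrays numbered 3 shared 12 (0.0290%). Among monocyte genes, Fcgr1, a high-affinity receptor for IgG, rose by 3.56 ± 0.16 and Cd14, a receptor for lipopolysaccharide, by 2.01 ± 0.17 on the log2 scale in tumor, while Ccr2, the receptor that draws monocytes into tissue, fell by 0.93 ± 0.15 and Csf1r by 0.57 ± 0.15 (limma with Benjamini-Hochberg adjustment). The highest of the 4 adjusted p-values by limma was 0.0428, for Csf1r, whose call was kept only without tumor replicate 3.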
